A study of Mus musculus with 25 samples.

Results

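The genes described here are the CC and CXC chemokine ligands. They are the genes of the count table whose symbol begins with Ccl or Cxcl followed by a number, plus Cx3cl1 and Xcl1. The rule found 39 of the 24537 genes in the table, and it used names alone. Of these, 29 passed the filter on low counts and were tested. A mean of at least 5 CPM (the count relative to the library's scaled total) in at least 1 of the 10 groups was reached by 23 of the 39, and those 23 are described. Ccl27a lay just inside that limit at 5.96 CPM in its highest group, and Cx3cl1 and Cxcl17 lay just outside it at 4.44 and 4.40 CPM. The other tested ligands were Ccl28, Cxcl11, Cxcl14 and Xcl1. The 10 ligands that were not tested were Ccl1, Ccl19, Ccl20, Ccl21a, Ccl21b, Ccl21c, Ccl26, Ccl27b, Cxcl5 and Cxcl15, and 3 of them (Ccl21b, Ccl21c and Ccl27b) had no count in any library. Ccl21a, Ccl21b and Ccl21c are near-identical copies, as are Ccl27a and Ccl27b, so how their reads were shared out is uncertain.

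The libraries came from C57BL6 mice fed a control diet with 10% fat (CD) or a high fat diet with 45% fat (HFD). Each of the 25 libraries was made from 200 sorted cells. From epididymal white adipose tissue (eWAT) 4 macrophage populations were sorted, with 2 libraries per diet in each. Those called pop1 and pop2 were Tim4+, with low MHCII in pop1 and high MHCII in pop2. Those called pop3 and pop4 were Tim4-, where pop3 was CD11c- and MHCII high, and pop4 was CD11c+ and MHCII+. Tim4 is a receptor for phosphatidylserine, carried by long-lived resident macrophages, and CD11c is an integrin. Blood monocytes, sorted by CD115 and Ly6C, gave 6 CD and 3 HFD libraries. Libraries are named here by population, diet and the number in their title. In adipose tissue every CD library has a title of the form CD-CD, while 3 of the 6 CD monocyte libraries do not. Diet and this title series cannot be told apart in adipose tissue. The labels do not tie libraries to animals, so p-values measure the spread between these libraries, which may be technical. Adipose tissue was digested with collagenase II with flavopiridol added, which blocks transcription elongation, whereas for blood the protocol names lysis and no digestion. Tissue and preparation therefore cannot be told apart either.

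Chemokines are small secreted proteins that direct the migration of leukocytes through G protein-coupled receptors. Ccl2, Ccl7 and Ccl12 act on Ccr2, the receptor that classical monocytes use to leave the bone marrow and enter inflamed tissue. Cxcl12 acts on Cxcr4 and Cxcl13 on Cxcr5, and these guide the homing and retention of progenitors and of B cells. Ccl17 and Ccl22 act on Ccr4 on T cells, and Ccl11 and Ccl24 on Ccr3 on eosinophils. Cxcl1, Cxcl2 and Cxcl3 act on Cxcr2 on neutrophils, and the interferon-induced Cxcl9 and Cxcl10 on Cxcr3 on activated T cells.

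Several of these genes lie close together in the genome, with coordinates given in mm10. Ccl2, Ccl7, Ccl11, Ccl12 and Ccl8 lie in this order on chromosome 11, with Ccl2 starting at position 82035577 and Ccl8 at position 82115185. Ccl5, Ccl9, Ccl6, Ccl3 and Ccl4 follow on the same chromosome, between positions 83525779 and 83664683. Ccl22 and Ccl17 lie on chromosome 8 with Cx3cl1 between them. Cxcl3, Cxcl1 and Cxcl2 lie on chromosome 5, with Cxcl15 between Cxcl3 and Cxcl1. The 250 bases upstream of the start could be taken from RefSeq (GRCm38.p6) for 16 of the 23 described ligands, where the RefSeq start was the start in the count table. The following 5 windows are shown as examples of ligands with different patterns over the populations. Ccl8 and Ccl12 are an adjacent pair that was lower in pop4 than in pop3, Ccl17 was higher there, Cxcl2 was detected in adipose tissue but hardly in blood, and Cxcl10 was higher in blood. The windows are Ccl8 at chr11:82114935-82115184 (plus strand), Ccl12 at chr11:82101595-82101844 (plus strand), Ccl17 at chr8:94810203-94810452 (plus strand), Cxcl2 at chr5:90903649-90903898 (plus strand) and Cxcl10 at chr5:92348890-92349139 (minus strand). They are written 5′ to 3′ in the direction of transcription, with motif matches in capitals.
Ccl8: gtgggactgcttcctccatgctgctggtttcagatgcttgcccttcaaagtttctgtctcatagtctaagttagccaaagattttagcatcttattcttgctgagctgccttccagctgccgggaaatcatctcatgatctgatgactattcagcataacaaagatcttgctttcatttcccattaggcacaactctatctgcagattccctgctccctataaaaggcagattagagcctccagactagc
Ccl12: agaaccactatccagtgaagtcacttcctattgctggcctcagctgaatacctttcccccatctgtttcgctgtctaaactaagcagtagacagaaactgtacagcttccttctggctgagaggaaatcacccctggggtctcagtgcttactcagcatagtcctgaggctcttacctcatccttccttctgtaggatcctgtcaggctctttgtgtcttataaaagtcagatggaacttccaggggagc
Ccl17: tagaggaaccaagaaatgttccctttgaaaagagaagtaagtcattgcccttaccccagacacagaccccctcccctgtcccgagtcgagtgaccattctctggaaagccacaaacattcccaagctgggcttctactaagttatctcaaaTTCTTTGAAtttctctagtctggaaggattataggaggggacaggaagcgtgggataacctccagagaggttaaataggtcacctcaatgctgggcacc
Cxcl2: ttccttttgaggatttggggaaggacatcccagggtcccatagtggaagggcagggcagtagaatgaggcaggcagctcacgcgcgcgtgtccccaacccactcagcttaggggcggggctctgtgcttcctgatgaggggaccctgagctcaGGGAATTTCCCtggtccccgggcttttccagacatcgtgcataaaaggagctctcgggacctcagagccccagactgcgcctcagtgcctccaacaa
Cxcl10: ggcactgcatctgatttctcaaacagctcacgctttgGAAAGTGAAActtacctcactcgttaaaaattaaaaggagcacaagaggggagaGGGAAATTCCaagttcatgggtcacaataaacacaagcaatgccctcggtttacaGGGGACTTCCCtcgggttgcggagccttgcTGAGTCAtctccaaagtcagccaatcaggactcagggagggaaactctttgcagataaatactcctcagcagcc
The motifs were searched on both strands. The NF-kB consensus motif matched in 5 of the 16 windows (Ccl9, Cxcl1, Cxcl2, Cxcl3 and Cxcl10), against 7.25% of 32851 RefSeq promoter windows of the same length. The 3 Cxcr2 ligands described all held a match. In Cxcl2 it began 97 bases upstream of the start. Cxcl10 held 3 NF-kB matches, of which 2 overlapped, and the other began 159 bases upstream. Cxcl10 also held the only match among the 16 to an interferon response motif (GAAA, any 2 bases, GAAA), 213 bases upstream, against 2.98% of all windows. The AP-1 motif TGANTCA matched in Ccl9 and Cxcl10 (6.75% of all windows), and the GAS motif TTCNNNGAA matched in Ccl17, 99 bases upstream (7.02% of all windows). The Ccl8 and Ccl12 windows held none of these motifs. A match describes the sequence and is not evidence of binding.

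The libraries held 3752835 to 9336395 counts, so 3 counts corresponded to between 0.341 and 0.698 CPM. The sorted identities were visible in the counts. Timd4, which encodes Tim4, lay between 88.6 and 624 CPM in the Tim4+ libraries and at no more than 11.9 in the Tim4- libraries, Itgax, which encodes CD11c, between 180 and 192 CPM in pop4 against at most 43.6 in pop3, and Ly6c2 between 434 and 674 CPM in monocytes against at most 21.8 in adipose libraries. Summed counts of olfactory and vomeronasal receptor genes, a set of sensory neuron genes taken as background, ranged from 79.5 to 683 CPM in adipose libraries and from 93 to 255 CPM in monocytes. Transcripts of other adipose cells were present as well. Adipoq, which encodes the adipocyte hormone adiponectin, ranged from 0.396 to 176 CPM in adipose libraries against at most 0.385 CPM in monocytes. In bulk libraries fewer cells of a type and less RNA per cell cannot be told apart.

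Ccl6 and Ccl9, ligands of Ccr1, held the most counts of these genes in every library. Together they made up between 44.7% and 76.3% of all chemokine ligand counts in adipose libraries and between 82.7% and 88.1% in monocytes. The 39 ligands summed to between 4223 and 8340 CPM in adipose libraries and to between 2617 and 3338 CPM in monocytes, so the ranges did not overlap. Per kilobase of transcript, Ccl8, a ligand of Ccr8 in the mouse, led in pop1 with 1100 RPKM (SD 272, n = 4), followed by Ccl6 at 1040 RPKM (SD 232, n = 4). The same pair led in pop2, with 1190 RPKM for Ccl8 (SD 239, n = 4) and 1140 RPKM for Ccl6 (SD 294, n = 4). The order of this pair is within the spread of the libraries in both populations. In pop3 Ccl6 came first at 1030 RPKM (SD 232, n = 4) and Ccl8 second at 799 RPKM (SD 227, n = 4), again within the spread. In pop4 Ccl6 led at 1100 RPKM (SD 185, n = 4), followed by Ccl9 at 522 RPKM (SD 58.1, n = 4) and Ccl2 at 404 RPKM (SD 64.7, n = 4). In monocytes Ccl6 at 830 RPKM (SD 84.2, n = 9) and Ccl9 at 430 RPKM (SD 33.6, n = 9) were followed by Cxcl10 at 181 RPKM (SD 58.2, n = 9). Monocytes thus had a short list of ligands. Ccl8, which led in Tim4+ cells, was low in pop4, at 20.9 RPKM (SD 35.5, n = 4).

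**Figure D1:**
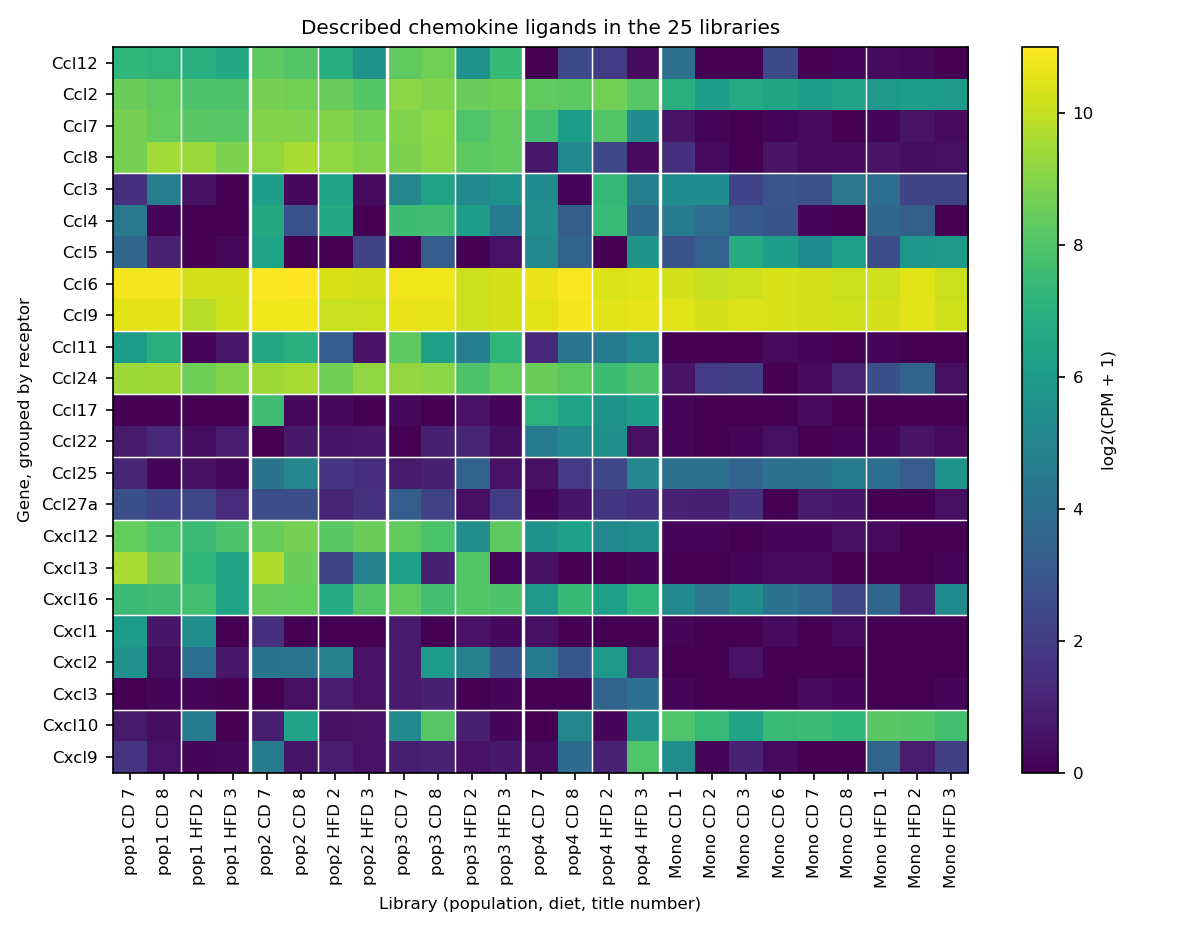
Levels of the 23 described ligands (rows, grouped by receptor) in the 25 libraries (columns, by population, diet and title number), as log2(CPM + 1). Ccl6 and Ccl9 are high in every library, Ccl7, Ccl24 and Cxcl12 are high in all adipose libraries and at no more than 10.3 CPM in monocytes, and Ccl17 is high in the 4 pop4 libraries and in pop2 CD 7.

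Adipose macrophages carried far more transcripts of Ccl7, Cxcl12, Ccl8, Ccl24 and Ccl11 than blood monocytes, while monocytes carried more Cxcl10, Ccl5 and Ccl25. Of the 29 tested ligands, 17 were higher in adipose macrophages and 4 lower (edgeR quasi-likelihood test, Benjamini-Hochberg adjusted p under 0.05 over 16961 genes). Over all genes 37% passed this test, 18.5% in each direction. The median difference of the ligands was 2.93 on the log2 scale, against 0.19 for all genes. For 8 of the 29 at least 1 of the groups compared was at 0 in all its libraries, which makes a fitted difference depend on the prior count, and the median with these 8 set to the level of 3 counts was 2.70. In 5 of the 29 (Ccl2, Ccl7, Ccl24, Cxcl12 and Cxcl16) every adipose library lay above every monocyte library, as it did for 1.3% of all genes tested.

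All 4 genes of the Ccr2 ligand and Ccl8 group were higher in adipose macrophages. Ccl7 ranged from 38.9 to 553 CPM (median 326) in the 16 adipose libraries and from 0 to 0.517 CPM (median 0.128) in the 9 monocyte libraries, where 14 counts were found in all. The groups did not overlap, and the fitted difference was 10.36 (SE 0.54, adjusted p = 6e-12). Ccl2, the classical monocyte attractant, was present in both, at 239 to 538 CPM (median 361) in adipose tissue and 57.7 to 118 CPM (median 68.2) in blood. Its difference of 2.24 (SE 0.13, adjusted p = 3.12e-11) was the smallest of the group and also left no overlap. Ccl8 ranged from 0.247 to 771 CPM (median 456) in adipose libraries and from 0 to 1.87 CPM (median 0.344) in monocytes, a difference of 8.48 (SE 0.75, adjusted p = 2e-08). Its groups overlapped, because the pop4 libraries were low. Ccl12, found next to Ccl8 and active on Ccr2, ranged from 0 to 403 CPM (median 118) against 0 to 15.6 CPM (median 0.117), a difference of 6.15 (SE 1.17, adjusted p = 0.000361). Without pop4 CD 8, the only pop4 CD library with Ccl12 counts, a group was at 0 and the test of Ccl12 gave no usable value.

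**Figure D2:**
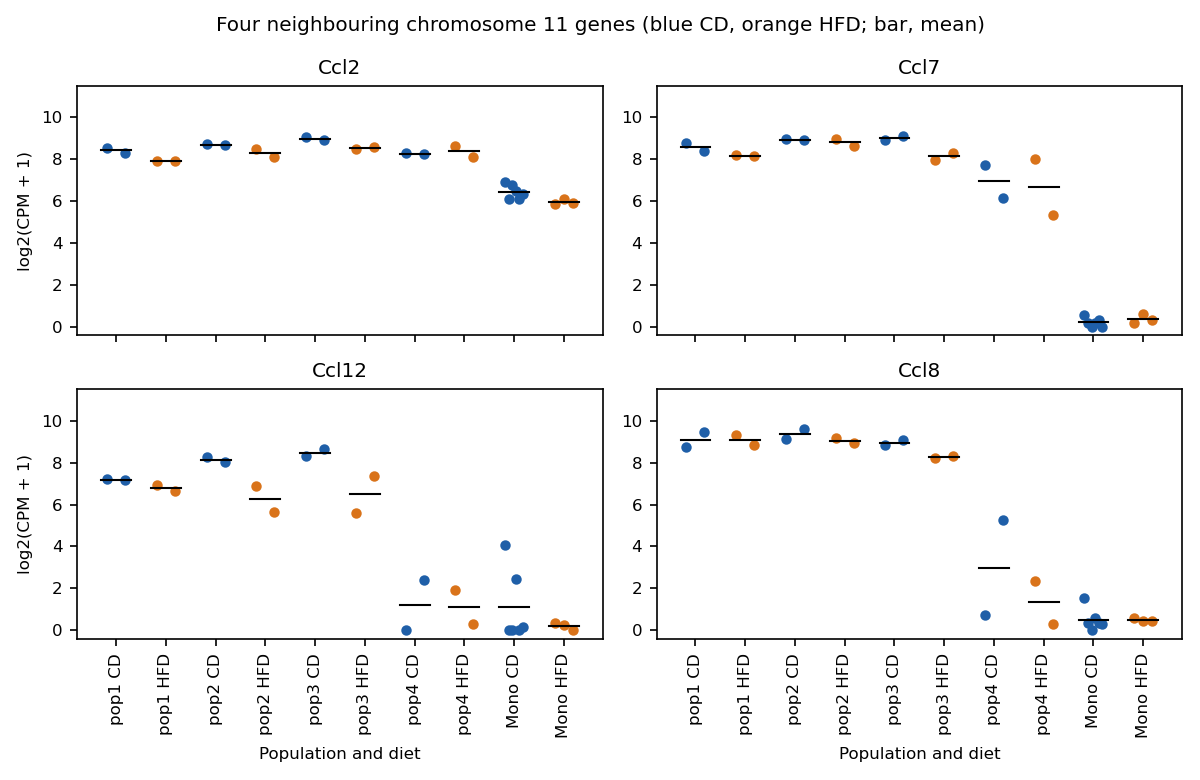
Ccl2, Ccl7, Ccl12 and Ccl8 in each library (points, log2(CPM + 1)) by population and diet, with the mean of each group as a bar. Ccl2 and Ccl7 stay above 38 CPM in all adipose libraries, whereas Ccl12 and Ccl8 fall to at most 4.30 and 37.4 CPM in pop4.

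Among Ccl3, Ccl4, Ccl5, Ccl6 and Ccl9, the inflammatory CC ligands, Ccl6 differed little between tissue and blood. It ranged from 1139 to 2002 CPM (median 1492) in adipose libraries and from 1035 to 1442 CPM (median 1136) in monocytes. The difference of 0.34 (SE 0.06, adjusted p = 0.000113) passed the test, although the ranges overlapped, and with HFD groups alone it was 0.08 and did not pass (adjusted p = 0.609). Ccl9, Ccl3 and Ccl4 did not pass. Ccl5, made by T and NK cells as well as by myeloid cells, ranged from 0 to 83.5 CPM (median 0.738) in adipose libraries and from 5.00 to 110 CPM (median 53.6) in monocytes, and was lower in adipose tissue (log2 difference -3.67, SE 0.97, adjusted p = 0.0059). With CD groups alone the difference was -2.05 and did not pass (adjusted p = 0.177).

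Ccl5 varied over the monocyte libraries together with the summed levels of a list of NK cell genes and a list of T cell genes. In Mono CD 1, Mono CD 2 and Mono HFD 1 Ccl5 stood at 5.98, 9.57 and 5.00 CPM, the 8 NK cell genes summed to 1.12, 0.504 and 2.18 CPM and the 7 T cell genes to 2.74, 0 and 1.15 CPM. In the other 6 monocyte libraries Ccl5 stood between 40.3 and 110 CPM, the NK cell genes between 74.7 and 200 CPM and the T cell genes between 80.7 and 335 CPM. The NK cell sum came almost only from Nkg7, at 52.9 to 132 CPM in those 6 libraries, and from Gzma. Ncr1, which defines NK cells, was at most 0.705 CPM in all monocyte libraries. Klra8, Gzmb, Prf1 and Eomes held at most 6 counts in any of them, and Klrb1c was high in Mono CD 8 alone, with 123 counts. The NK cell sum by itself therefore does not show whether NK cells were present. Of the T cell genes, Cd3g and Cd8b1 were at 0 in the first 3 libraries and held 104 to 873 counts in the other 6. Cd4 held at most 7 counts in any monocyte library. Among those 6, Cd3e was at 0 in Mono HFD 2, Cd8a in Mono CD 7 and Lck in Mono CD 3. Xcl1, a ligand typical of NK and T cells, was at most 0.125 CPM in the first 3 libraries and reached 9.78 CPM in Mono CD 3, with 0.117 CPM in Mono CD 8. It was lower in adipose tissue by a fitted -5.51 (adjusted p = 0.000258), a size that depends on the prior count because 3 adipose groups were at 0. The part of T or NK cells in the Ccl5 and Xcl1 levels was not tested.

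The Ccr3 ligands Ccl24 and Ccl11 were higher in adipose macrophages. Ccl24, an eosinophil attractant, ranged from 192 to 743 CPM (median 447) in adipose libraries and from 0 to 10.3 CPM (median 1.17) in monocytes. The groups did not overlap, and the difference was 7.34 (SE 0.60, adjusted p = 5.52e-09). Ccl11, eotaxin, ranged from 0.138 to 308 CPM (median 29.6) in adipose libraries against at most 0.251 CPM in monocytes, where all 9 libraries together held 4 counts. The difference was 8.36 (SE 0.96, adjusted p = 7.92e-07). Ccl11 is also made by stromal cells. The 10 stromal progenitor genes summed to between 136 and 1642 CPM in adipose libraries and between 156 and 281 CPM in monocytes, and Dcn, which encodes decorin, to between 3.03 and 887 CPM against at most 0.877 CPM. Their part in the Ccl11 and Cxcl12 levels was not tested.

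Of the homeostatic CXC ligands, Cxcl12 showed the clearest separation. It ranged from 34.5 to 430 CPM (median 247) in the adipose libraries, and from 0 to 0.352 CPM (median 0.125) in the monocytes, which held 9 counts in all. The groups did not overlap, and the difference was 10.38 (SE 0.55, adjusted p = 6.82e-12). Cxcl16, a transmembrane ligand of Cxcr6, ranged from 57.3 to 348 CPM (median 201) against 0.861 to 38.8 CPM (median 17.4), with no overlap and a difference of 3.29 (SE 0.52, adjusted p = 4.16e-05). Cxcl13, the B cell attractant, ranged from 0 to 821 CPM (median 53.3) against at most 0.253 CPM. Its difference of 8.00 (SE 2.82, adjusted p = 0.0313) was lost without pop4 CD 7 or without pop4 HFD 3, when a group stood at 0.

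Cxcl2, a neutrophil attractant, ranged from 0.292 to 66.5 CPM (median 16.8) in adipose libraries, and 1 monocyte library (Mono CD 3) held 0.466 CPM with the other 8 at 0. The groups overlapped only through that library. The fitted difference was 8.76 (adjusted p = 0.000659), and its size depends on the prior count. Cxcl1 and Cxcl3 also had groups at 0 and did not pass, which says little because their fitted differences depend on the prior count as well. Cxcl10, the interferon-induced ligand, ranged from 0 to 284 CPM (median 0.805) in adipose libraries and from 85.5 to 288 CPM (median 185) in monocytes. It was lower in adipose tissue (log2 difference -5.00, SE 0.80, adjusted p = 5.44e-05), and only pop3 CD 8 at 284 CPM reached into the monocyte range. Ccl25, best known from thymus and small intestine, ranged from 0.146 to 33.3 CPM (median 1.45) against 7.92 to 49.2 CPM (median 16.6), a difference of -3.02 (SE 0.54, adjusted p = 0.0002). Ccl22 (2.93) and Ccl27a (2.70) were the remaining described ligands that passed, both higher in adipose tissue. Without pop2 CD 8 or without pop3 CD 8 the difference of Ccl22 did not pass.

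The genes around these ligands moved in both directions. All 11 interferon response genes examined were lower in adipose macrophages, with Irf7 at -4.93 (SE 0.35), Ifit2 at -4.02 (SE 0.46) and Isg15 at -3.82 (SE 0.88) the largest differences, the same direction as Cxcl10. Of 11 feedback genes of NF-kB, 4 were lower (among them Nfkbib at -2.16, Rel at -1.68 and Nfkb1 at -1.13) and none higher. The chemokine receptors higher in adipose macrophages included Cxcr2 by 2.18 (SE 0.80) and Ccr1 by 0.61 (SE 0.20). Another 6 were lower, led by Cx3cr1 at -5.50 (SE 0.46), Cxcr6 at -5.44 (SE 0.94) and Ccrl2 at -2.81 (SE 0.48). Ccr2 itself, the receptor of Ccl2, Ccl7 and Ccl12, was lower (log2 difference -2.73, SE 0.29). Cxcr2 was at most 1.86 CPM in every library of either tissue. Cxcr6 was above 26 CPM in 4 monocyte libraries, which were among the 6 with Nkg7 and T cell transcripts.

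Within adipose tissue, Tim4+ macrophages (pop1 and pop2) had more Cxcl13, Ccl8, Ccl12 and Cxcl12 than Tim4- macrophages (pop3 and pop4), and less Ccl22 and Ccl11. These 4 higher and 2 lower of the 29 tested ligands compare with 15.1% of all genes, 7.26% higher and 7.79% lower. The median difference of the ligands was 0.02 on the log2 scale, against 0.14 for all genes. Of the 29, 6 had a group at 0 in this comparison, among them Ccl17 and Ccl4. Over all genes the split of 1232 higher and 1322 lower became 1625 and 1074 under DESeq2 size factors, where the median over all genes shifted by 0.12 and Ccl22 did not pass (adjusted p = 0.0539). With the background counts as a covariate 0 ligands passed. Ccl8 was then at 3.33 (SE 1.16, adjusted p = 0.165) and Cxcl13 at 2.83 (SE 3.50, adjusted p = 0.823). That background ranged from 244 to 683 CPM in Tim4+ libraries and from 79.5 to 657 CPM in Tim4- libraries.

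Cxcl13 ranged from 3.76 to 821 CPM (median 263) in the 8 Tim4+ libraries and from 0 to 261 CPM (median 0.257) in the 8 Tim4- libraries, a difference of 5.72 (SE 0.99, adjusted p = 0.000462). The high Tim4- values were pop3 HFD 2 at 261 CPM and pop3 CD 7 at 78.7 CPM. With HFD groups alone the difference was 3.80 and did not pass (adjusted p = 0.142). Ccl8 ranged from 427 to 771 CPM (median 576) against 0.247 to 540 CPM (median 170), a difference of 3.53 (SE 0.53, adjusted p = 0.000104). With CD groups alone it was 2.67 (adjusted p = 0.0953). Cxcl12 ranged from 182 to 430 CPM (median 313) against 34.5 to 313 CPM (median 63.0), a difference of 1.53 (SE 0.31, adjusted p = 0.00227), and with HFD groups alone it was 1.73 (adjusted p = 0.0733). All of these overlapped between Tim4+ and Tim4- libraries, because pop3 was closer to the Tim4+ populations than pop4 was.

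The other calls in this comparison were weaker. Ccl12 ranged from 49.1 to 304 CPM (median 131) in Tim4+ libraries and from 0 to 403 CPM (median 26.3) in Tim4- libraries, with its highest values in pop3. Its difference of 2.88 (SE 0.90, adjusted p = 0.0348) passed in 14 of 25 fits that each left out 1 library. Ccl11 was lower (log2 difference -2.03, SE 0.63, adjusted p = 0.0355), and passed in 15 of 25 such fits. With CD groups alone its sign was the opposite, at 1.18. Ccl22 ranged from 0 to 1.31 CPM (median 0.698) in Tim4+ libraries and from 0 to 44.6 CPM (median 1.12) in Tim4- libraries. Its difference of -2.71 (SE 0.90, adjusted p = 0.0461) passed in 7 of 25 such fits, and its high values were those of 3 pop4 libraries.

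Receptors of the same ligands differed as well. Of the 15 tested receptors none was higher in Tim4+ macrophages and 3 were lower, Ccrl2 (log2 difference -4.12, SE 0.66), Ccr2 (log2 difference -4.07, SE 0.40) and Cx3cr1 (log2 difference -3.60, SE 0.61). Ackr3, the scavenging receptor that takes up Cxcl12, was higher by 3.41 (SE 0.82, adjusted p = 0.00802). It ranged from 1.09 to 22.7 CPM (median 1.70) in Tim4+ libraries, and its median in Tim4- libraries was 0.309 CPM. The high values were those of pop1 CD 8 and pop1 HFD 2, with 61 and 165 counts. The other Tim4+ libraries held 6 to 11 counts and the Tim4- libraries 0 to 9 counts, so the groups overlapped near the level of a few counts. Of the 11 interferon response genes 4 were higher in Tim4+ macrophages, led by Ifit3 at 2.97 (SE 0.70), Irf7 at 2.69 (SE 0.45) and Rsad2 at 2.02 (SE 0.59).

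**Figure D3:**
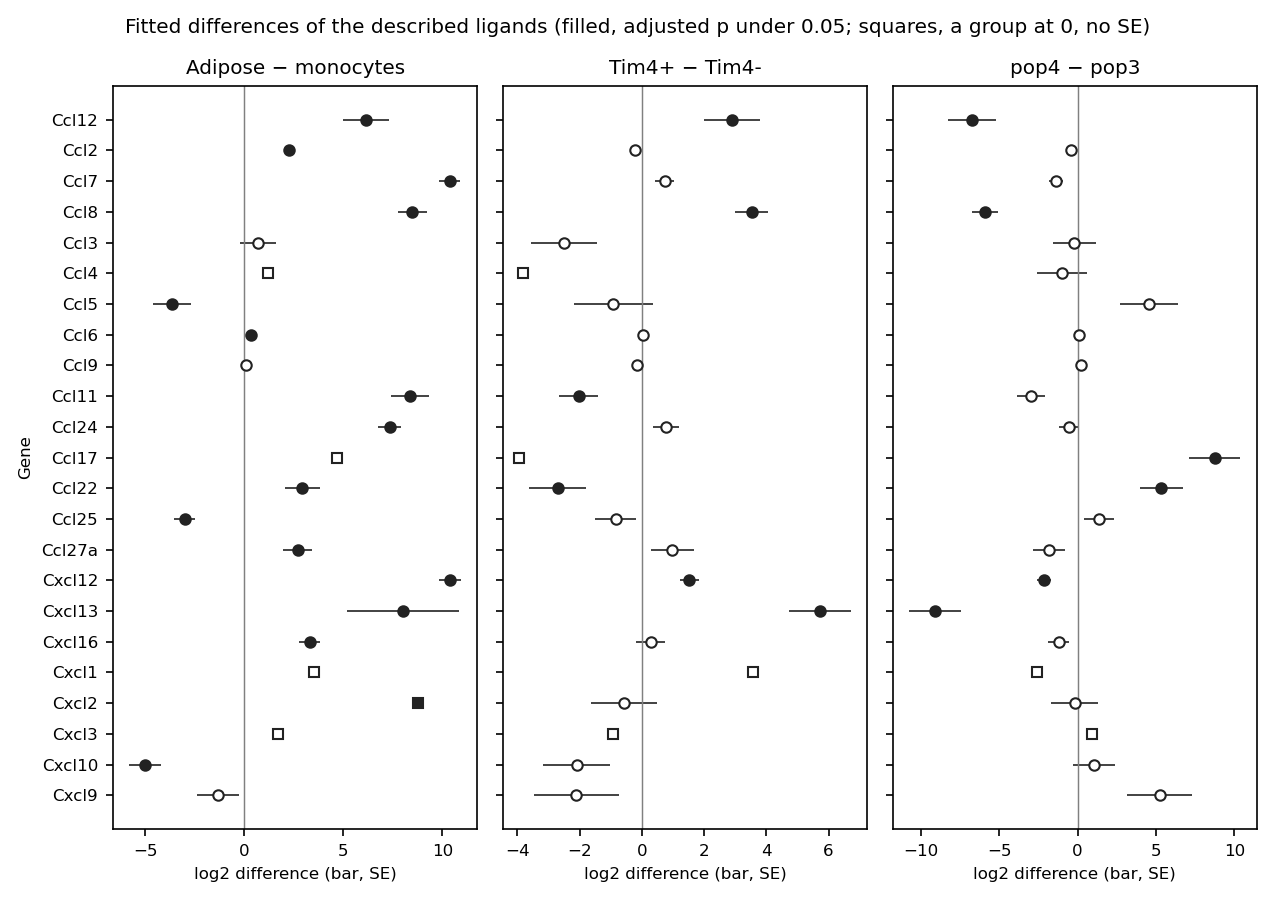
Fitted log2 differences of the 23 described ligands in 3 comparisons, with the SE as a bar and filled symbols where the adjusted p was under 0.05. Squares without a bar mark genes with a group at 0, whose difference depends on the prior count. Ccl8, Ccl12, Cxcl12 and Cxcl13 lie to the right in the first 2 panels and to the left in the third, and Ccl17 and Ccl22 lie to the right in the third.

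Between neighbouring populations of the sort no ligand passed. In pop1 against pop2, which differ in MHCII, 0 of 29 ligands passed with edgeR (5 at an unadjusted p under 0.05, and 4 with DESeq2), beside 0.466% of all genes (0.283% higher, 0.183% lower). The 1 ligand without overlap was Ccl25, lower in pop1 at 0.146 to 1.27 CPM against 1.63 to 33.3 CPM in pop2, beside 1.41% of all genes. The median of the ligands was -0.50 against -0.07 for all genes. In pop2 against pop3, which differ in Tim4 at high MHCII, 0 of 29 passed with edgeR (3 at an unadjusted p under 0.05, and 0 with DESeq2), beside 1.03% of all genes. With both pop2 HFD libraries left out, 3 and 1 ligands passed in these comparisons.

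The CD11c+ population pop4 stood apart from pop3. It had more Ccl17 and Ccl22 than pop3, and less Ccl8, Ccl12, Cxcl12 and Cxcl13. Of the 29 tested ligands 3 were higher in pop4 and 4 lower, beside 6.57% of all genes, 2.32% higher and 4.25% lower. The median difference of the ligands was -0.58 against -0.17 for all genes. With DESeq2 size factors the split over all genes went from 394 higher and 720 lower to 298 and 882, and 6 ligands were lower. With the background counts as a covariate 0 ligands passed. Ccl17 was then at 10.15 (SE 3.01, adjusted p = 0.189) and Ccl8 at -5.63 (SE 1.67, adjusted p = 0.163). That background ranged from 79.5 to 190 CPM in pop4 and from 194 to 657 CPM in pop3. Some of the ligands did not overlap between the libraries of pop4 and pop3, 1 of the 29 with pop4 higher (6.08% of all genes) and 4 with pop4 lower (8.47% of all genes).

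Ccl17, a T cell attractant typical of dendritic cells and alternatively activated macrophages, stood at 129 and 80.9 CPM in the CD libraries of pop4 and at 49.8 and 69.6 CPM in its HFD libraries. In pop3 it stood at 0.178 and 0 CPM on CD and 0.473 and 0.114 CPM on HFD. The groups did not overlap, and the difference was 8.75 (SE 1.64, adjusted p = 0.00416), which passed whichever library was left out. In pop1 all 4 libraries were at 0. In pop2 Ccl17 stood at 198 CPM in CD 7, the highest value of all, and at 0.174, 0.198 and 0 CPM in the other 3 libraries. The level in pop4 against monocytes, which held 3 counts in all, differed by a fitted 11.04 (adjusted p = 5.91e-05), a size that depends on the prior count. Tim4+ against Tim4- macrophages did not pass for Ccl17 (adjusted p = 0.0604).

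Ccl22, the other Ccr4 ligand, stood at 22.7, 35.6 and 44.6 CPM in 3 pop4 libraries and at 0.370 CPM in pop4 HFD 3. In pop3 it stood at 0, 0.942, 1.30 and 0.341 CPM, so the groups overlapped through 1 library. The difference was 5.33 (SE 1.38, adjusted p = 0.0244), and it passed in 20 of 25 fits that each left out 1 library. Without pop4 HFD 2 it was 2.41 (adjusted p = 0.279), and it was also lost without pop4 CD 8, pop3 CD 7, pop3 HFD 2 or pop3 HFD 3. Ccl17 was present in pop4 HFD 3 at 69.6 CPM, so the pair was not always found together. Markers of dendritic cells varied over the same libraries. Flt3 stood at 93.0, 8.74, 8.62 and 0.741 CPM in pop4 CD 7, CD 8, HFD 2 and HFD 3, and Ccr7 at 41.0, 0.134, 28.3 and 0 CPM. Other dendritic cell genes had another order over these libraries, with Clec9a at 0.131, 9.95, 11.4 and 18.6 CPM and Zbtb46 at 1.04, 6.99, 7.51 and 13.2 CPM. The 9 dendritic cell genes summed to between 683 and 909 CPM in pop4 and to between 484 and 687 CPM in pop3, with Cd209a at no less than 433 CPM in pop4 and 299 CPM in pop3. The same sum was not lower in Tim4+ CD libraries, at 778 to 978 CPM in pop1 and 1111 to 1333 CPM in pop2. On HFD it was 583 to 727 CPM in pop1 and 532 to 849 CPM in pop2. The part of dendritic cells in the Ccl17 and Ccl22 levels was not tested.

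On the other side, Ccl8 stood at 458 and 540 CPM on CD and at 303 and 315 CPM on HFD in pop3, and at 0.652 and 37.4 CPM on CD and at 4.06 and 0.247 CPM on HFD in pop4. The groups did not overlap, and the difference was -5.94 (SE 0.84, adjusted p = 0.000149), which passed whichever library was left out. Ccl12 stood at 315 and 403 CPM on CD and at 48.2 and 162 CPM on HFD in pop3, and at 0, 4.30, 2.83 and 0.247 CPM in pop4. Its difference of -6.73 (SE 1.52, adjusted p = 0.0107) had no overlap. It did not pass without pop4 CD 7 (-6.21), without pop4 HFD 2 (-7.99) or without pop4 HFD 3 (-6.28). Ccl7, of the same cluster, stood at 480, 553, 253 and 318 CPM in pop3 and at 214, 70.5, 261 and 38.9 CPM in pop4, and did not pass (-1.40, SE 0.45, adjusted p = 0.0598). Ccl11 did not pass either (-2.95, SE 0.90, adjusted p = 0.0511). With DESeq2 size factors both passed, Ccl7 at -1.53 (adjusted p = 0.0408) and Ccl11 at -3.07 (adjusted p = 0.0404). Ccl2, of the same cluster, was at no less than 279 CPM in pop4, whereas Ccl12 was at no more than 4.30 CPM and Ccl8 at no more than 37.4 CPM.

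Cxcl13 stood at 78.7, 0.942, 261 and 0.114 CPM in pop3 CD 7, CD 8, HFD 2 and HFD 3, and at 0.391, 0, 0 and 0.124 CPM in pop4. The groups overlapped. The difference of -9.11 (SE 1.65, adjusted p = 0.00198) rested on pop3 HFD 2, without which it was -4.12 (adjusted p = 0.338). Cxcl12 stood at 313, 236, 42.3 and 309 CPM in pop3 and at 49.5, 76.6, 34.5 and 41.2 CPM in pop4, so the groups overlapped through pop3 HFD 2. The difference was -2.17 (SE 0.45, adjusted p = 0.00631). It was -1.13 (adjusted p = 0.0801) without pop3 HFD 3 and -2.10 (adjusted p = 0.0504) without pop4 HFD 2. Cxcl14, the third ligand higher in pop4 (a fitted 4.90, adjusted p = 0.0397), stayed under the limit for description, with at most 4.44 CPM in any library.

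Compared with blood monocytes, pop4 had 13 of the 29 ligands higher and 1 lower, beside 12.5% of all genes, 7.16% higher and 5.3% lower. The median of the ligands was 2.34 against -0.04 for all genes. After Ccl17 the largest differences among the described ligands were those of Ccl7 (9.30, SE 0.55), Cxcl2 (8.96), Cxcl12 (8.53, SE 0.54) and Ccl11 (7.90, SE 0.99). Ccl8, though low in pop4, was higher there than in monocytes by 3.75 (SE 0.75, adjusted p = 0.00135). It did not pass without pop4 CD 8 (1.34, adjusted p = 0.349) or without pop4 HFD 2 (2.23, adjusted p = 0.432). The lower ligand was Xcl1.

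**Figure D4:**
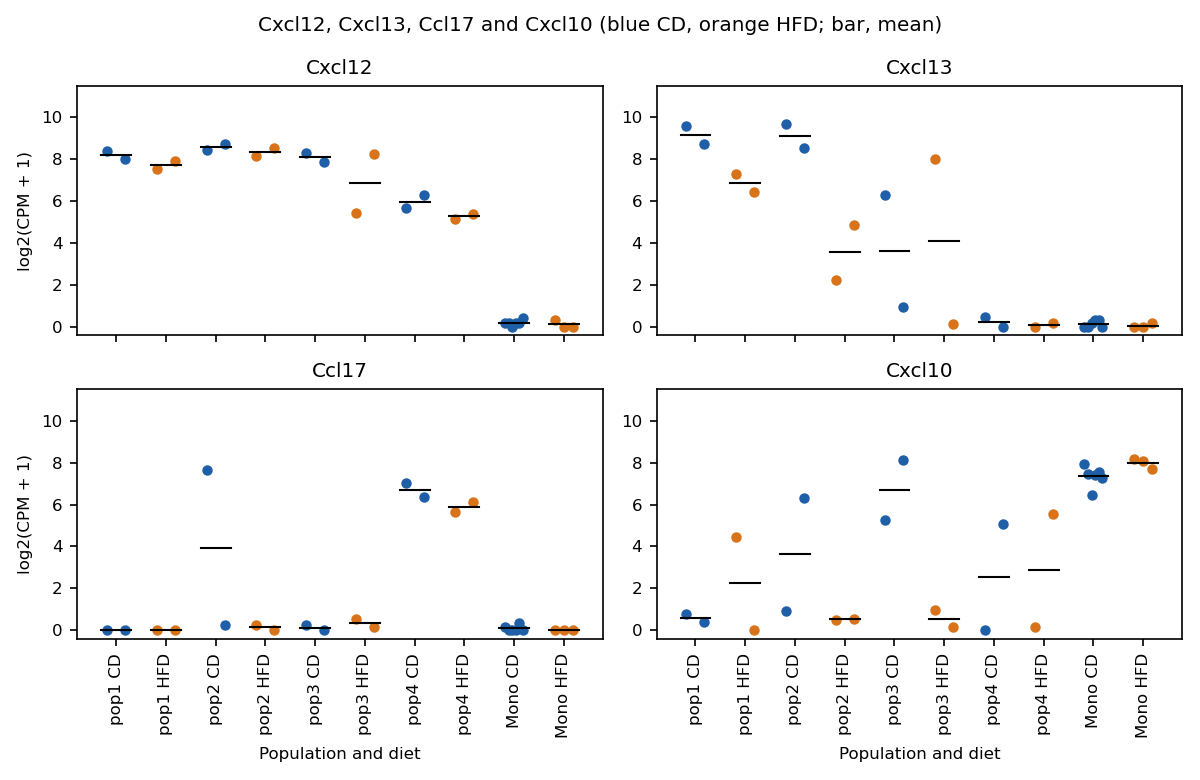
Cxcl12, Cxcl13, Ccl17 and Cxcl10 in each library (points, log2(CPM + 1)) by population and diet, with the mean of each group as a bar. Cxcl12 has its lowest adipose group means in pop4, Ccl17 is above 49 CPM in all 4 pop4 libraries and in 1 pop2 library, and Cxcl10 lies above 85 CPM in all monocyte libraries and scatters between 0 and 284 CPM in adipose libraries.

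Diet was compared within each population. The ligands that passed were all lower on HFD. In pop1 0 of 29 ligands were higher and 1 lower, beside 0.436% of all genes (0.0531% higher, 0.383% lower). In pop2 0 were higher and 3 lower, beside 4.19% of all genes (0.755% higher, 3.44% lower). In pop3, pop4 and monocytes 0 of 29 passed with edgeR, beside 0.0943% (0.0825% higher, 0.0118% lower), 0.0354% and 0.0059% of all genes, with 4, 5 and 4 ligands at an unadjusted p under 0.05 and 2, 1 and 0 by DESeq2. The median difference of the ligands was -0.62 in pop1, -0.45 in pop2, -0.86 in pop3, -0.01 in pop4 and -0.38 in monocytes, against -0.19, 0.30, -0.14, -0.09 and -0.08 for all genes.

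The summed level of the 39 ligands was lower in both HFD libraries than in both CD libraries of each adipose population, with the smallest gap in pop4. It stood at 6866 and 6508 CPM on CD and at 4422 and 4364 CPM on HFD in pop1, at 8340 and 7838 against 4934 and 4827 CPM in pop2, and at 7039 and 7001 against 4223 and 4808 CPM in pop3. In pop4 it stood at 4343 and 4924 against 4278 and 4247 CPM. These sums were not tested. Both HFD libraries lay below both CD libraries for 14 of 29 ligands in pop1, 11 in pop2, 16 in pop3 and 4 in pop4, beside 26.5%, 18.5%, 24.3% and 21.1% of all genes tested. Both lay above for 0, 5, 0 and 5 ligands, beside 15.4%, 28.9%, 16.4% and 14.7% of all genes.

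Ccl6, which held the most counts, was among these ligands. It stood at 1796 and 1767 CPM on CD and at 1212 and 1202 CPM on HFD in pop1, at 1984 and 2002 against 1292 and 1239 CPM in pop2, at 1763 and 1761 against 1139 and 1247 CPM in pop3, and at 1576 and 1935 against 1344 and 1408 CPM in pop4. In each adipose population both HFD libraries were below both CD libraries. The difference passed in pop2 (-0.65, SE 0.13, adjusted p = 0.00581), and not in pop1 (-0.56, SE 0.13, adjusted p = 0.0622), pop3 (-0.56, SE 0.13, adjusted p = 0.0977) or pop4 (-0.35, SE 0.13, adjusted p = 0.569). In monocytes Ccl6 ranged from 1035 to 1278 CPM on CD and stood at 1129, 1442 and 1102 CPM on HFD, so diets overlapped. Without Mono HFD 2 the difference in pop1 passed (-0.56, adjusted p = 0.0349).

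Ccl9, the neighbour of Ccl6, was also lower in pop2, at 1745 and 1759 CPM on CD and 1063 and 1121 CPM on HFD (-0.68, SE 0.14, adjusted p = 0.00583). In pop1 it stood at 1503 and 1518 against 899 and 1164 CPM (-0.55, SE 0.14, adjusted p = 0.085), and in pop3 at 1603 and 1550 against 1135 and 1255 CPM (-0.40, SE 0.14, adjusted p = 0.278). In pop4 the diets overlapped, at 1459 and 1820 against 1445 and 1540 CPM. Both pop2 calls depended on the scaling. With DESeq2 size factors Ccl6 was at -0.50 (adjusted p = 0.056) and Ccl9 at -0.53 (adjusted p = 0.0551) in pop2, while the median of all genes moved by 0.15, and neither passed with upper-quartile factors. General macrophage transcripts were lower in the same libraries, as 8 macrophage genes summed to 4453 to 4522 CPM on CD and 3989 to 4007 CPM on HFD in pop1, and to 5159 to 5628 against 4352 to 4411 CPM in pop2. Their part in the Ccl6 and Ccl9 levels was not tested.

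**Figure D5:**
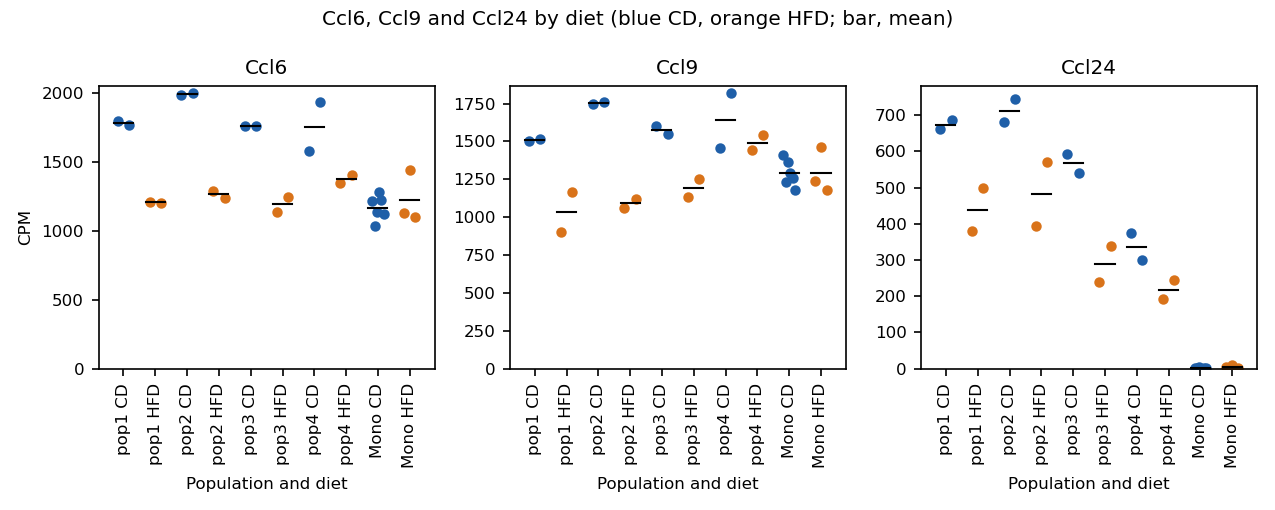
Ccl6, Ccl9 and Ccl24 in each library (points, CPM) by population and diet, with the mean of each group as a bar. For Ccl6 and Ccl24 both HFD libraries lie below both CD libraries in each adipose population, and for Ccl9 they do in pop1, pop2 and pop3.

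Ccl24 had the same order, at 661 and 687 against 379 and 499 CPM in pop1, 680 and 743 against 395 and 572 CPM in pop2, 592 and 541 against 239 and 339 CPM in pop3, and 373 and 299 against 192 and 244 CPM in pop4. It passed in none of these comparisons. Ccl2 in monocytes was the 1 ligand of 29 whose HFD libraries (57.7, 67.7 and 59.9 CPM) all lay below its CD libraries (68.0 to 118 CPM, median 84.3), beside 1.33% of all genes, and it did not pass either (adjusted p = 0.557).

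Ccl11 was the ligand whose response to diet differed between populations. In pop1 it stood at 64.2 and 121 CPM on CD and at 0.138 and 0.649 CPM on HFD, without overlap. The difference of -7.85 (SE 1.65, adjusted p = 0.0337) rested on 5 counts in the HFD libraries. It passed in 15 of 25 fits that each left out 1 library, with an adjusted p of up to 0.221. In pop2 Ccl11 stood at 98.3 and 118 CPM on CD and at 8.11 and 0.465 CPM on HFD, and did not pass (-4.64, SE 1.39, adjusted p = 0.0637). In pop3 it stood at 308 and 77.6 against 25.4 and 151 CPM, and in pop4 at 1.31 and 19.2 against 21.6 and 33.7 CPM. The difference between the diet effects in Tim4+ and Tim4- macrophages was -6.40 (SE 1.32, adjusted p = 0.0293), and Ccl11 was the 1 of 29 ligands to pass that test, beside 0.637% of all genes (0.0649% higher, 0.572% lower). It passed in 18 of 25 fits that each left out 1 library. Dcn, the stromal gene named above, was lower on HFD in both Tim4+ populations, as Ccl11 was, at 118 and 507 against 3.03 and 30.8 CPM in pop1 and at 281 and 187 against 88.6 and 72.8 CPM in pop2. In pop3 Dcn held 4995 and 908 counts on CD and 482 and 3670 counts on HFD. In pop4 it held 237 and 1491 counts on CD and 653 and 1987 counts on HFD. In pop3 and in pop4 the libraries with the least and the most Dcn were those with the least and the most Ccl11. The 10 stromal progenitor genes summed to 238 and 827 CPM in the CD libraries of pop1 and to 155 and 136 CPM in its HFD libraries, and to 457 and 286 against 362 and 411 CPM in pop2. In pop2 the sum held Gsn, at 68.8 and 42.4 CPM on CD and at 120 and 285 CPM on HFD. Dpp4 had the same order as Dcn at low counts, 25 and 12 against 2 and 9 in pop1 and 19 and 10 against 3 and 2 in pop2. No remaining gene of the list was lower in both HFD libraries of both populations. Col1a2 held 8 and 191 against 162 and 80 counts in pop1 and 11 and 49 against 488 and 5 in pop2. Col3a1 held 134 and 108 against 86 and 168 counts in pop2. Their part in the Ccl11 levels was not tested.

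Ccl17 in pop2 was the last diet call, at -9.66 (SE 2.45, adjusted p = 0.0323). It rested on pop2 CD 7 with 198 CPM, since pop2 CD 8 stood at 0.174 CPM and the HFD libraries at 0.198 and 0 CPM. Without pop2 CD 7 the difference was -0.85 (adjusted p = 0.934), and it was also lost without pop2 HFD 2 (-12.45) or pop2 HFD 3 (-8.86). The diets overlapped. Cxcl13 in pop2 stood at 821 and 369 CPM on CD and at 3.76 and 27.9 CPM on HFD without overlap, but did not pass (-5.23, SE 1.74, adjusted p = 0.10).

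When the counts of the 4 adipose populations were summed per title number, leaving 2 CD and 2 HFD sums, 0 of 30 tested ligands and 0% of all 17806 genes passed with edgeR, 6 ligands had an unadjusted p under 0.05, and 2 passed with DESeq2. Ccl6 was at -0.48 (SE 0.07, adjusted p = 0.296), Ccl9 at -0.36 (SE 0.09, adjusted p = 0.302) and Ccl11 at -1.33 (SE 0.64, adjusted p = 0.457) in these sums. In the fit that treats the libraries separately, the mean of the 4 adipose differences passed for all 3, with -0.53 for Ccl6 (SE 0.07, adjusted p = 0.000105), -0.44 for Ccl9 (SE 0.07, adjusted p = 0.000693) and -3.05 for Ccl11 (SE 0.66, adjusted p = 0.00844). The sums differ from that mean in the weight of each population, in the genes that passed the filter and in the residual degrees of freedom.

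The remaining described ligands varied widely between libraries of 1 group. Ccl3 and Ccl4, inflammatory ligands, ranged from 0 to 161 CPM and from 0 to 199 CPM in adipose libraries. In pop2 CD 7 and pop2 HFD 2 Ccl3 stood at 71.9 and 79.1 CPM and Ccl4 at 101 and 104 CPM, while in pop2 CD 8 and pop2 HFD 3 they were at no more than 5.75 CPM. Cxcl9, induced by interferon gamma, was at 247 CPM in pop4 HFD 3 and at no more than 21.2 CPM in the other adipose libraries. Cxcl1 was at 63.5 and 41.0 CPM in pop1 CD 7 and pop1 HFD 2 and at no more than 1.76 CPM in the other 23 libraries. Cxcl3 was above 1 CPM in pop4 HFD 2 and pop4 HFD 3 alone, at 10.4 and 15.2 CPM. None of these 5 ligands passed in any comparison.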

How the data were processed

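RNA was sequenced from 25 libraries of 200 sorted mouse cells, and the authors deposited raw counts per gene. STAR 2.5.3a, HOMER and the build mm10 are named in the submitters' processing notes, and the counting settings are not given in the sources used here. Totals ran from 3752835 to 9336395 counts. Symbols were taken as the text before the first bar of the annotation column, and groups from the sample titles. The members and lists were chosen with earlier results of these data known.

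Counts were scaled by TMM and fitted with edgeR 4.0.16 (R 4.3.3) as 10 group means in 1 model with 15 residual degrees of freedom, after filterByExpr by group. The quasi-likelihood F test was adjusted by Benjamini-Hochberg over 16961 genes (17806 for sums), with a threshold of 0.05. The biological coefficient of variation was 0.749. Differences are log2 fold changes, and SE is the difference divided by the root of F. No SE is given where a group was at 0. CPM uses TMM-scaled totals, and RPKM divides it by the length in the table. Members with a mean CPM of at least 5 in a group were described. Those given library by library were Ccl7, Cxcl12, Ccl8 and Ccl17, each described member called in a diet comparison, and up to 5 called members per direction with the largest differences in each population comparison. Receptor, NF-kB and interferon genes were named up to 3 per direction, Ccr2 in addition. The ligands in the last paragraph of the results, with Ccl2, Ccl24 and Cxcl16, were chosen after their values were seen. The scripts were tested on simulated data. Alternatives were DESeq2 1.42.0, other scaling, no filter, a background covariate, subsets of libraries and each library left out. Deviations of same-numbered adipose libraries from their group means correlated at -0.011 to 0.074. These values cannot decide whether title numbers pair the libraries, because noise in low counts could hide a shared origin.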

Additional observations from a re-analysis of the deposited data

Results flagged for a closer look

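In the 6 CD monocyte libraries, 18 described ligands with at least 3 counts in a library were examined for a library far from the others, and 6 were found where the gap to the nearest library was more than 0.625 of the whole range. For normally distributed values chance gives this in about 1 in 20 groups, a rate that was not checked for values of a few counts against 0. Ccl12 was at 15.6 CPM and Cxcl9 at 40.5 CPM in Mono CD 1, against 4.39 and 1.16 CPM in the next library, and Ccl8 was at 1.87 CPM in the same library, against 0.501 CPM. Cxcl2 was at 0.466 CPM in Mono CD 3 with the other 5 at 0. Ccl22 was at 0.376 CPM in Mono CD 6 and Cxcl12 at 0.352 CPM in Mono CD 8, against 0.125 and 0.127 CPM in the next library, which is near the level of 3 counts.

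The diet effect on Ccl11 differed between Tim4+ and Tim4- macrophages by -6.40 on the log2 scale (edgeR, adjusted p = 0.0293), a test of the difference itself.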

How the results depend on the processing

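Of 53 called differences of single ligands, 30 kept their call whichever library was left out, 13 kept it in all the other alternatives, 12 in every alternative, and 3 reversed in at least 1. With a covariate for olfactory and vomeronasal counts the number of ligands called was 10 instead of 21 in adipose macrophages against monocytes and 0 instead of 6, 7 and 1 in Tim4+ against Tim4-, pop4 against pop3 and the difference of diet effects. Under it Ccl28 (adipose against monocytes) was at -0.10, Ccl12 (Tim4+ against Tim4-) at -0.10 and Ccl11 (Tim4+ against Tim4-) at 0.20. Ccl11 was at 1.18 with CD groups alone and at 1.17 with CD-CD titled libraries alone. With CD groups alone 2 ligands were called in Tim4+ against Tim4-. With the CD-CD titled libraries alone, chosen after seeing the data, the counts were 13 (adipose against monocytes), 2 (Tim4+ against Tim4-), 1 (pop4 against pop3) and 8 (pop4 against monocytes). With HFD groups alone, also chosen then, they were 12 (adipose against monocytes), 1 (pop4 against pop3) and 7 (pop4 against monocytes). Fewer libraries enter these fits. With DESeq2 the counts were 4 in pop1 against pop2, and 4, 6, 2 and 1 for diet in pop1, pop2, pop3 and pop4, 3 for the difference of diet effects and 2 for the adipose sums. DESeq2 size factors and upper-quartile factors each left 1 ligand in pop2 on HFD. The mean of the 4 adipose differences gave 3 ligands for diet, against 0 for the sums. Without both pop2 HFD libraries 3 ligands were called in pop1 against pop2 and 1 in pop2 against pop3.

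Leaving out 1 library gave 17 to 22 ligands in adipose against monocytes, 3 to 6 in Tim4+ against Tim4-, 0 to 3 in pop1 against pop2, 0 to 1 in pop2 against pop3, 4 to 8 in pop4 against pop3, 10 to 15 in pop4 against monocytes, and 0 to 2 and 2 to 5 for diet in pop1 and pop2, and 0 to 1 for the difference of diet effects. With the replicate block the counts were 17, 5, 0, 0, 5 and 13 in the 6 population comparisons and 0 for diet in monocytes. The labels give no pairing, and in adipose tissue no diet comparison could be fitted with a block, since CD and HFD libraries share no number. The median over all genes shifted by 0.16 (adipose against monocytes), 0.12 (Tim4+ against Tim4-) and -0.13 (pop4 against pop3) with DESeq2 size factors, and by -0.19 for diet in pop3 with upper-quartile factors. The cause of these changes was not tested. With 2 libraries of 200 cells per adipose group, a high level in 1 library decides a group mean.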
